A study of Homo sapiens with 8 samples.

Results

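The 81 collagen, laminin and integrin genes of the human genome were examined for H3K27ac, out of 20033 protein-coding genes in GENCODE release 44 (hg38). The members were taken by symbol: 44 collagen chains, 12 laminin chains and 25 integrin subunits. ITGA2B, whose symbol ends in a letter, was left out. For each gene the peaks lying in the gene body or within 10 kb on either side, termed the gene window, were collected from each library. H3K27ac is an acetyl group on lysine 27 of histone H3, found at promoters and enhancers in use.

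The cells were pancreatic progenitors (PPs) differentiated from MEL1, a single established human embryonic stem cell line, which the study's methods give as MEL1 INS GFP/W, a line with a GFP reporter at the insulin gene. All of them were cultured in EF6, which holds B27, EGF, bFGF and the TGFβ inhibitor 616452. The DMSO group received the solvent and the other group 1 µM I-BET151, a BET bromodomain inhibitor, for 7 days. Each group had 2 H3K27ac ChIP-seq libraries, and as nothing states that they came from separate cultures, p-values measure only the spread between these libraries. With 2 libraries against 2, no exact permutation test could pass the threshold, the smallest two-sided p being 0.333.

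Collagens form the fibrils and networks of the extracellular matrix. Laminins are trimers of an alpha, a beta and a gamma chain that build the basement membrane under epithelia, and integrins are alpha-beta pairs on the cell surface through which cells hold on to both. In the developing pancreas the epithelium lies on such a basement membrane, while fibrillar collagens are known mainly as products of mesenchyme.

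ChIP depth, worked out from the fold and p-values in the lists, was 7.96 and 9.84 M reads in DMSO and 7.76 and 8.04 M in I-BET151, so the deepest library was a DMSO library. The lists held 12312 to 14248 peaks. Of 10 PP marker genes 9 had a peak in all 4 libraries, PTF1A having none, and their summed covered length was 40.8 and 39.5 kb in DMSO against 47.1 and 45 kb in I-BET151. Of 10 mesenchyme markers 3 had a peak in any library. They were PDGFRB (1768 and 2182 bp in DMSO, 1475 and 1406 bp in I-BET151), TWIST2 (582 and 552 bp, then 466 and 412 bp) and FBN1. FBN1 had no peak in DMSO and 296 and 309 bp at its start in I-BET151, and it was called higher (limma, adjusted p = 0.00398). TWIST1, PRRX1, PDGFRA, DCN and LUM were among those with none, and the list summed to 2.35 and 2.73 kb in DMSO against 2.24 and 2.13 kb in I-BET151. Of 7 endothelial markers PECAM1 alone had a peak, in the DMSO libraries (307 and 528 bp). Of 5 pluripotency markers LIN28A alone had a peak. PTPRC, the general leukocyte marker, had none, and no leukocyte marker had a peak at its own start in any library. The part of these markers in the results below was not tested.

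A few stretches of the hg38 plus strand carry the results described below. The first is shown because LAMA3, which encodes an alpha chain of epithelial laminin, holds repeated copies of the AP-1 letters TGANTCA just before a transcription start that had a peak in both DMSO libraries and in 1 of the 2 I-BET151 libraries. AP-1 is the JUN and FOS family of transcription factors, and its letters read the same on both strands. The capitals mark each match. The window is the 270 bases before a start inside the LAMA3 gene (chr18:23872750-23873019), with matches at -252, -125 and -69 from that start.
LAMA3: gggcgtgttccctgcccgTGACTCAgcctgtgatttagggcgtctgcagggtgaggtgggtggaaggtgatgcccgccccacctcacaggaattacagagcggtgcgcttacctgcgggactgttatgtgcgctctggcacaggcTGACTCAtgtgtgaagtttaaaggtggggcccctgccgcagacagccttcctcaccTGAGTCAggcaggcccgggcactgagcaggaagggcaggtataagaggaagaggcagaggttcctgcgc
Before the outermost starts of all 20033 genes, 51 windows of 270 bases (0.255%) held at least 2 matches and 2 (0.00998%) at least 3. The LAMA3 window lies before an inner start and is not in that set. Windows before inner starts of other genes were not counted, so these shares do not give its rarity. The gene was picked after the matches had been seen, and a match is a description, not a binding site.

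The next stretch lies in an intron of ITGA3, an integrin alpha subunit that pairs with ITGB1 to bind laminin (chr17:50064822-50065022). Its peak was called in DMSO replicate 2 alone, and it is shown for its single AP-1 match, in capitals.
ITGA3: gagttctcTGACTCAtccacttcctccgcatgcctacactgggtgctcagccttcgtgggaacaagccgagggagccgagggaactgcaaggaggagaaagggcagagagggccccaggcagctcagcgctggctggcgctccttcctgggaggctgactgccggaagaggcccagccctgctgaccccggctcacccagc
The last windows centre on summits that were called in both libraries of one group alone, with CpG dinucleotides in capitals. They show the strongest region lost at LAMA5, in an intron (chr20:62361538-62361658), the region lost before the start of ITGA2 (chr5:52988924-52989044), and the region gained before the start of COL2A1 (chr12:48005361-48005481).
LAMA5: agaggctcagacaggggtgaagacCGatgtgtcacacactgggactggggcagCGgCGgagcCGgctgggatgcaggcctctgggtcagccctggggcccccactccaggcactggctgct
ITGA2: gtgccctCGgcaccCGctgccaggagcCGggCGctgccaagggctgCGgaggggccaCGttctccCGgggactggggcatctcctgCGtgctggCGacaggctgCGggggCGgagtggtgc
COL2A1: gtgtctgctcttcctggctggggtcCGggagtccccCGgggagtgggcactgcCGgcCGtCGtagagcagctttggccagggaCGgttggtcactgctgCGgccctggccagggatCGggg
The LAMA5 window held 4 CpGs, the ITGA2 window 11 and the COL2A1 window 8. Within 250 bp of the summit, the 17 lost member regions had a median of 16 CpGs and the 36 shared ones 46.5, against 20 and 47 over all lost and all shared regions.

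No library had a peak in the window of 35 members, 46 had a peak in at least 1 library and 29 in all 4. COL1A2, COL3A1, COL5A1 and COL5A2, the main partners of COL1A1 in collagen fibrils, were among those without a peak, as was LAMB3, a beta chain of epithelial laminin. A gene without a peak may still be acetylated below the caller's threshold.

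Summed over the members, peaks covered 52.4 and 55.1 kb in DMSO against 42.0 and 39.9 kb in I-BET151. Both I-BET151 libraries lay below both DMSO libraries, and the means were 53.8 ± 1.91 and 40.9 ± 1.48 kb (SD, n = 2), a difference of -23.9%. Over all protein-coding genes the difference was -11.2%. LAMA5 alone made up 62.3% of the members' difference, and without it the difference was -11.1%, close to that of all genes. A region in the windows of 2 neighbouring genes counts in both sums. In these bulk samples fewer cells with the mark and less of the mark per cell cannot be told apart.

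**Figure D1:**
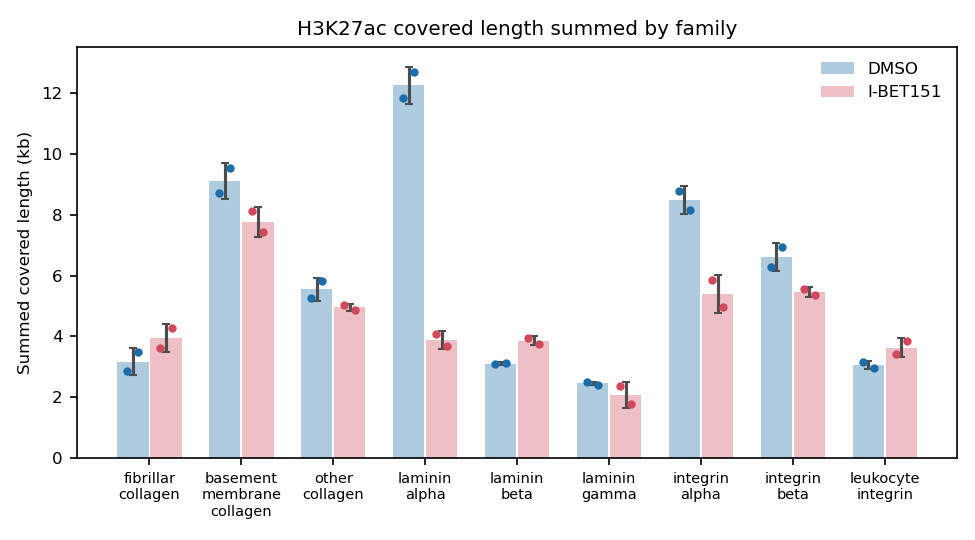
Covered length in kb (vertical axis) summed over the genes of each family, for DMSO (blue) and I-BET151 (red). Bars are means of 2 libraries, dots the libraries and error bars the SD. The laminin alpha chains stood at 12.3 kb with DMSO against 3.88 kb with I-BET151, the laminin beta chains at 3.10 and 3.85 kb.

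The families did not move together. Laminin alpha chains covered 11.8 and 12.7 kb in DMSO against 4.09 and 3.67 kb in I-BET151, and integrin alpha subunits 8.80 and 8.15 kb against 5.84 and 4.96 kb. Laminin beta chains went the other way, with 3.07 and 3.13 kb in DMSO against 3.95 and 3.74 kb in I-BET151. Fibrillar collagens stood at 2.84 and 3.48 kb against 3.62 and 4.26 kb. The laminin alpha fall was mostly that of LAMA5 (10044 and 10454 bp in DMSO against 2306 and 2196 bp in I-BET151). The fibrillar rise rested on COL2A1 (415 and 381 bp against 1183 and 1626 bp), the only fibrillar member higher in both I-BET151 libraries. Among the laminin beta chains only LAMB1 and LAMB2 had peaks. With peaks at starts of other genes left out, LAMB2 had 792 and 864 bp against 783 and 734 bp, leaving the rise to LAMB1. These 4 family directions stayed when covered length was scaled to an equal total or the lists cut to equal length. The basement membrane collagens (8.70 and 9.53 kb against 8.12 and 7.42 kb) overlapped between groups under both. Integrin beta subunits, at 6.28 and 6.95 kb in DMSO against 5.57 and 5.35 kb in I-BET151, overlapped only with lists of equal length.

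Counted gene by gene, 18 of the 46 members with a peak (39.1%) were lower in both I-BET151 libraries than in both DMSO libraries, against 39.3% of the 12751 protein-coding genes with a peak. Higher in both were 10 members (21.7%), against 13.3% of all genes. Covered length was then tested with limma on log2(bp + 200) over all 12751 genes, with Benjamini-Hochberg adjustment at 0.05. It called 8 members lower (LAMA5, ITGA2, ITGA3, ITGB4, COL1A1, COL6A1, COL13A1 and COL17A1) and 2 higher (COL2A1 and COL8A2), while 7.04% of all genes were called lower and 1.87% higher. The median log2 fold change was -0.04 over the members and -0.06 over all genes tested. With peaks at the starts of other genes left out, 7 of 35 members were called lower and 1 higher, beside 814 and 253 of all 11571 genes. LAMA5, ITGA3 and COL6A1 kept their calls with any single library left out, where the lone library of a group is assumed to vary like the other group. ITGA3 and COL6A1 stood at 0 bp in both I-BET151 libraries. Without a DMSO library their remaining spread was therefore 0 by the floor, and those refits could not test their calls. COL1A1, COL13A1, COL17A1, ITGA2 and ITGB4 lost theirs without I-BET151 replicate 1 or without I-BET151 replicate 2 (limma, adjusted p from 0.0694 to 0.212). COL8A2 lost its call without any one of the libraries (0.0545 to 0.0813), and COL2A1 without DMSO replicate 1, DMSO replicate 2 or I-BET151 replicate 2 (0.0659 to 0.24).

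**Figure D2:**
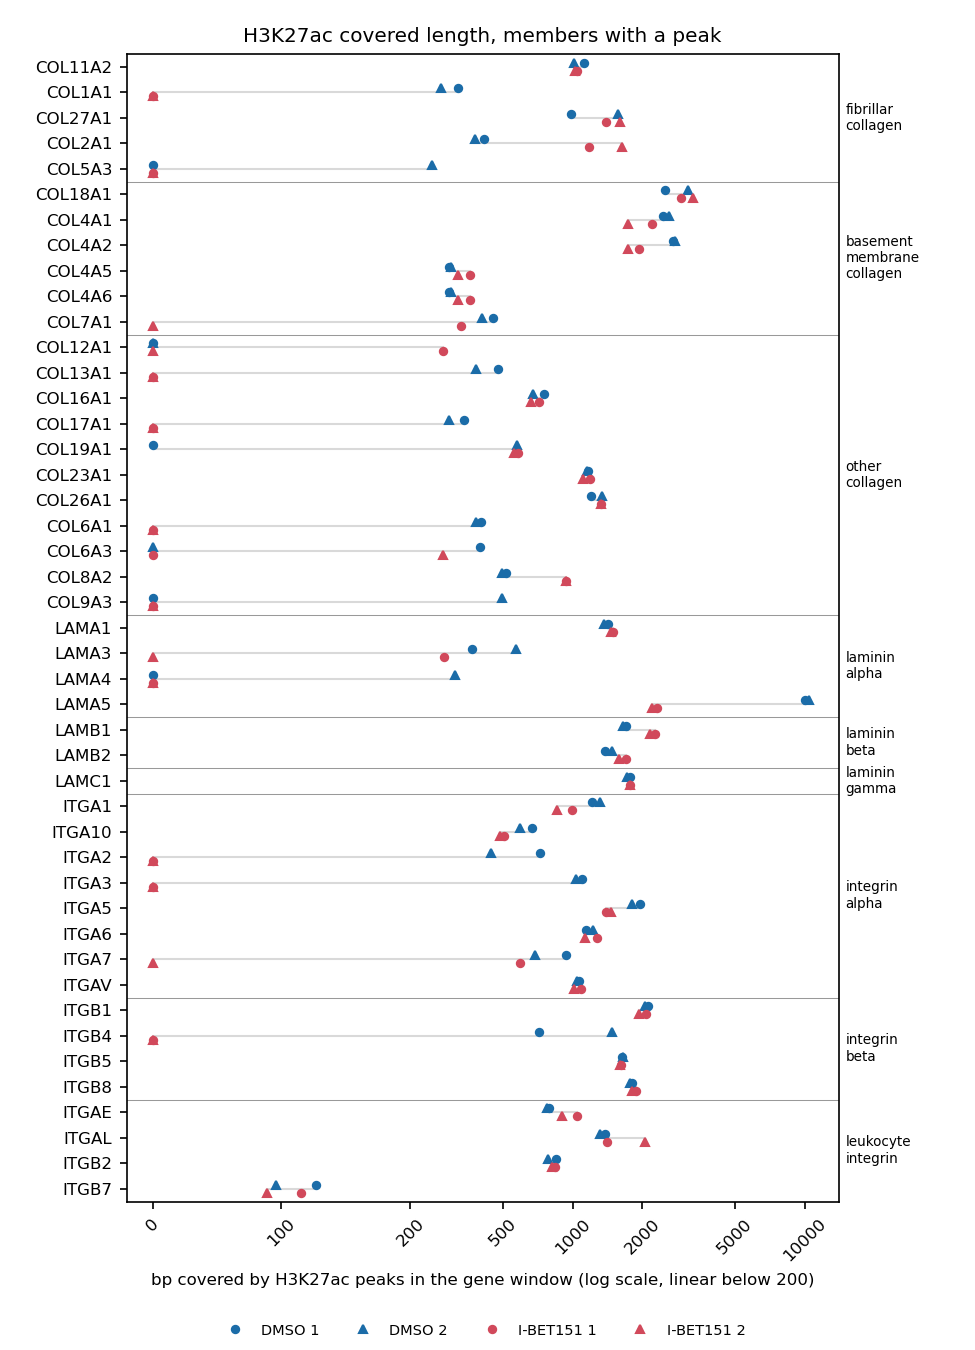
Covered bp in the gene window (horizontal axis, log scale, linear below 200) for 45 members with a peak, one row per gene, with DMSO libraries in blue and I-BET151 libraries in red (circles replicate 1, triangles replicate 2). LAMA5 stands apart with 10044 and 10454 bp in DMSO, and 7 members with DMSO peaks in both libraries sit at 0 in both I-BET151 libraries.

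Most of the called members had no peak left. In 7 of the 46 members (15.2%) both DMSO libraries had a peak and neither I-BET151 library did, against 3.51% of all genes. They were COL1A1, COL6A1, COL13A1, COL17A1, ITGA2, ITGA3 and ITGB4. The reverse pattern was found at 0 members. Its share over all genes was not counted, so this 0 has no background to be read against. All 7 are among the 8 members called lower, so the calls and this count are the same observation. At these 7 both I-BET151 libraries stood at the floor of 0 bp, so their spread in the fit was 0 and not a measured agreement.

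LAMA5, the laminin alpha chain of most epithelial basement membranes, had the largest covered length of any member in DMSO, though not in I-BET151, where COL18A1 had 2920 and 3298 bp. Peaks covered 10044 and 10454 bp of its window in DMSO against 2306 and 2196 bp in I-BET151. The log2 fold change was -2.09 with a standard error of 0.06 (limma, adjusted p = 0.00311). It held 9 and 12 peaks in DMSO and 4 and 2 in I-BET151. In every library these counts include peaks at the start of ADRM1, a neighbour. The other peaks lay around the start and in introns of LAMA5. There, 6 regions had a peak in each DMSO library and none in I-BET151.

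The strongest of these 6 regions, in an intron 5714 bp from the nearest start, covered 1964 and 1885 bp and had 246 and 275 reads at its summit, a fold of 5.9 and 7.4 over local background. At the same input level 69 and 73 reads would have sufficed for a call in I-BET151 replicates 1 and 2. The region over the LAMA5 start was called in all libraries, with 2033 and 2123 bp in DMSO against 1052 and 792 bp. Its summit stood at 38.9 and 35.3 reads per M ChIP reads (RPM, M for mega) in DMSO and 23.8 and 28.2 in I-BET151. At the far end of the window the start of ADRM1, a neighbouring gene, had 1583 and 1237 bp in DMSO against 1254 and 1404 bp in I-BET151, so the groups overlapped at the neighbour's start.

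**Figure D3:**
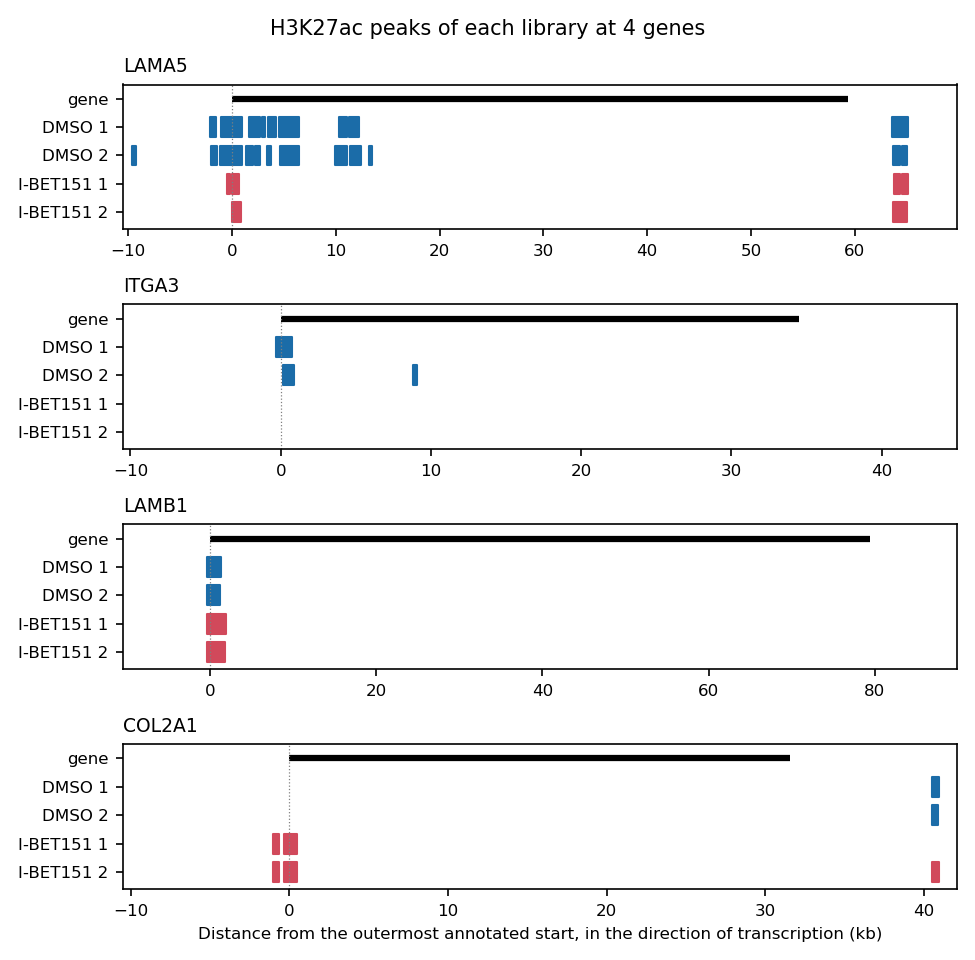
Peaks of each library at LAMA5, ITGA3, LAMB1 and COL2A1, drawn by distance in kb from the outermost start along the direction of transcription (horizontal axis), with the gene as a black bar and 1 row per library. At LAMA5 the DMSO rows show peaks in introns that the I-BET151 rows lack, whereas at LAMB1 the I-BET151 peaks are wider (2258 and 2159 bp against 1693 and 1646 bp). The peaks at the right ends of the LAMA5 and COL2A1 panels lie at starts of neighbouring genes.

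The other laminin alpha chains had far less. LAMA1, the embryonic alpha chain, had 1426 and 1371 bp in DMSO against 1500 and 1469 bp in I-BET151, a difference that was not called (log2 fold change 0.08, adjusted p = 0.529). LAMA3 had 369 and 568 bp against 279 and 0 bp, and its main peak stood over the inner start shown above. LAMA4, a chain of vessels and muscle, was called in DMSO replicate 2 alone (313 bp), and LAMA2 in none. LAMA3 was lower in both I-BET151 libraries but did not pass the test (adjusted p = 0.397).

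Among the partner chains, LAMB1 had 1693 and 1646 bp in DMSO against 2258 and 2159 bp in I-BET151. Both I-BET151 libraries lay above both DMSO libraries, and the log2 fold change of 0.37 (standard error 0.05) just missed the threshold (limma, adjusted p = 0.0579). LAMC1, the common gamma chain, was level at 1768 and 1723 bp against 1775 and 1764 bp, with the groups overlapping. LAMB2 had 1377 and 1481 bp against 1696 and 1585 bp. The difference lay at the start of USP19, a neighbour, with 585 and 617 bp against 913 and 851 bp, while its main region at its own start covered 428 and 501 bp against 385 and 419 bp.

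In the basement membrane collagens, COL4A1 and COL4A2 share a start region from which they are transcribed in opposite directions. COL4A1 had 2451 and 2614 bp in DMSO against 2197 and 1739 bp in I-BET151. COL4A2 had 2706 and 2775 bp against 1943 and 1739 bp, a log2 fold change of -0.53 with a standard error of 0.07 that narrowly missed the threshold (limma, adjusted p = 0.0526). The shared start region itself differed little, with 1794 and 1757 bp against 1670 and 1739 bp and 33.0 and 30.9 RPM against 28.7 and 30.6. On both measures the I-BET151 libraries lay slightly below both DMSO libraries, and the height was not called (limma on RPM, log2 difference -0.05, adjusted p = 0.581). The regions lost were inside the genes: 1 in a COL4A1 intron (337 and 312 bp in DMSO) and 1 over a coding exon near the far end of COL4A2 (319 and 473 bp).

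COL18A1, whose product is cut to release endostatin, held 7 regions, and they moved both ways. Its window had 2507 and 3134 bp in DMSO against 2920 and 3298 bp in I-BET151, with the groups overlapping. COL4A5 and COL4A6 share 1 small region, of 294 and 300 bp against 363 and 322 bp. COL7A1, the anchoring fibril collagen, had 452 and 409 bp against 332 and 0 bp, all at the start of PFKFB4, a neighbour.

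Among the integrin alpha subunits, 6 of the 8 with a peak were lower in both I-BET151 libraries and 0 were higher, beside 39.3% and 13.3% of all genes. For ITGA7 and ITGA10, counted among the 6, all peaks lay at starts of other genes. ITGA3 had 1099 and 1033 bp in DMSO and no peak in I-BET151 (limma, adjusted p = 0.00278). ITGA2, an alpha subunit of a collagen receptor, had 725 and 444 bp against none (adjusted p = 0.0308). At their starts 181 and 199 reads (ITGA3) and 177 and 185 reads (ITGA2) stood at the summit in DMSO. For a call at the same input level 87 and 91 reads would have sufficed in the I-BET151 libraries at ITGA3, and 62 and 67 at ITGA2. Since both genes are at 0 in I-BET151, no fold is given.

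ITGA5, the alpha subunit of the fibronectin receptor, had 1959 and 1812 bp in DMSO against 1390 and 1471 bp in I-BET151 and was not called (log2 fold change -0.35, adjusted p = 0.0933). The region it lost, of 412 and 310 bp, lies at the start of ZNF385A. ITGA1 had 1207 and 1310 bp against 996 and 858 bp (adjusted p = 0.154). The difference lay in a region over a coding exon of PELO, with 740 and 814 bp against 498 and 362 bp. The ITGA1 start region, shared with PELO, had 467 and 496 bp against 498 and 496 bp. ITGA7 had 936 and 692 bp against 591 and 0 bp and ITGA10 671 and 594 bp against 506 and 485 bp.

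ITGA6 and ITGAV were level. ITGA6, which pairs with ITGB4 to hold epithelia to laminin, had 1140 and 1226 bp in DMSO against 1270 and 1129 bp in I-BET151. ITGAV, the alpha subunit of receptors for vitronectin, had 1063 and 1043 bp against 1087 and 1017 bp. For both the groups overlapped.

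The beta subunits split in the same manner. ITGB4 had 714 and 1484 bp in DMSO and no peak in I-BET151 (limma, adjusted p = 0.0467), and part of it, 382 and 566 bp, lay at the start of GALK1. With that peak left out ITGB4 was no longer called (adjusted p = 0.135). ITGB1, the beta partner of most integrins named here, had 2124 and 2045 bp against 2081 and 1942 bp, and the groups overlapped. ITGB5 had 1634 and 1646 bp against 1622 and 1594 bp, and ITGB8 1805 and 1770 bp against 1868 and 1811 bp, differences of -0.03 and 0.04 on the log2 scale that were not called.

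The 8 leukocyte integrins are subunits found mainly on blood cells. In 4 of them no library had a peak, and no leukocyte integrin had a peak at its own start. Peaks in the windows of ITGAE, ITGAL, ITGB2 and ITGB7 lay at the starts of HASPIN, ZNF768, SLX9, CSAD and ZNF740, apart from 1 at ITGAL in I-BET151 replicate 2, which lay in a coding exon of ZNF768.

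Fibrillar collagens, the main collagens of connective tissue, had a peak in 5 of 11 members. COL1A1 had 320 and 271 bp in DMSO, in a region at -9390 bp from its start, and none in I-BET151 (limma, adjusted p = 0.00786). No library had a peak at the COL1A1 start. COL2A1, best known from cartilage, went the other way, from 415 and 381 bp in DMSO to 1183 and 1626 bp in I-BET151 (log2 fold change 1.41, standard error 0.17, adjusted p = 0.0376). The DMSO peaks lay at the start of TMEM106C, a neighbour. At the COL2A1 start no DMSO library had a peak, and both I-BET151 libraries had 2, of 838 and 829 bp over the start and of 345 and 351 bp before it. Summit reads over the start were 131 and 157, and 90 and 106 reads would have sufficed for a call in the DMSO libraries.

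COL27A1 gained 1 region at -1341 bp from its start, of 365 and 601 bp in the I-BET151 libraries. Its start region stayed at 983 and 1042 bp in DMSO against 1025 and 1008 bp in I-BET151. The remaining fibrillar collagens with a peak were COL11A2, at starts of neighbouring genes, and COL5A3, in DMSO replicate 2 alone.

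Of the 24 other collagens 11 had a peak. COL6A1, a chain of microfibrils, had 404 and 384 bp at its start in DMSO and none in I-BET151 (limma, adjusted p = 0.00359). COL13A1 and COL17A1, both collagens that span the cell membrane, had 478 and 384 bp and 339 and 293 bp in DMSO and none in I-BET151 (adjusted p = 0.0087 and 0.00647). Both of these regions lay inside the genes, over 20 kb from a start. COL8A2 was called higher, from 519 and 499 bp to 933 and 934 bp (log2 fold change 0.68, adjusted p = 0.0131). The only region in its window lay at the start of ADPRS, 11168 bp from any COL8A2 start. In height that region went the other way, from 25.5 and 25.2 RPM in DMSO to 20.1 and 21.5 in I-BET151. By RPM it was called lower (limma, log2 difference -0.23, adjusted p = 0.0495).

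Regions were made by merging peaks that share at least 1 bp. Of 85 regions in member windows 36 were called in all 4 libraries (shared), 17 in the DMSO libraries alone, in each of them (lost), 3 in the reverse (gained) and 29 otherwise. The lost share was 20.0% against 8.60% of the 15752 regions of the genome, and the gained share 3.53% against 2.81%. LAMA5 held 6 of the 17 lost regions. The other 11 were spread over ITGB4 with 2 and over COL1A1, COL4A1, COL4A2, COL6A1, COL13A1, COL17A1, ITGA2, ITGA3 and ITGA5 with 1 each. Of the 17, 12 (70.6%) were over 1 kb from any start, against 53.0% of all lost regions. All 6 lost regions of LAMA5 were among these 12, so the share rests largely on that gene.

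At 16 of these 17 regions, reads at the summit in the DMSO libraries were 1.22 to 3.27 times those that would have sufficed in I-BET151 at the same input level, each taken per M ChIP reads. The ratio was lowest at the GALK1 start in the ITGB4 window and highest in the LAMA5 intron. These regions were picked for being called in both DMSO libraries, so at similar depth a ratio above 1 was largely fixed by that choice. It is a description and not a test of the loss. The same holds for the reads given above at LAMA5, ITGA3 and ITGA2, and at COL2A1 with the groups exchanged. The COL17A1 region was left out, as its reads were resolved in 1 DMSO library only.

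At the starts themselves, 23 and 27 members had a peak within 1 kb in DMSO and 22 and 20 in I-BET151, means of 25 ± 2.83 and 21 ± 1.41 (SD, n = 2). Among the 28 with such a peak in any library, 3 (ITGA2, ITGA3 and COL6A1) had it in both DMSO libraries and no I-BET151 library, against 4.01% of all genes with a start peak. COL2A1 was the only one with the reverse, against 1.63%.

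Height was then compared at the 36 shared regions. With the fold enrichment over local background, limma called 0 of 36 member regions, with 3 lower and 3 higher at an unadjusted p under 0.05. Over all 10317 shared regions it called 0.0582% lower and 0% higher. Summit RPM, a measure added after the data were seen that is not divided by local background, could be worked out for 35 regions. Its reads and depth were still solved together with input levels. There limma called 5 of the 35 lower and 9 of the 35 higher, against 14.4% and 20.2% of all 10039 such regions. The lower share was thus near that of all regions, and the higher share somewhat above it. The regions called lower at COL8A2 and COL11A2 and higher at COL23A1 and ITGAL lay at starts of other genes. The 2 measures thus gave different counts, and none of the RPM calls below was also called by fold.

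**Figure D4:**
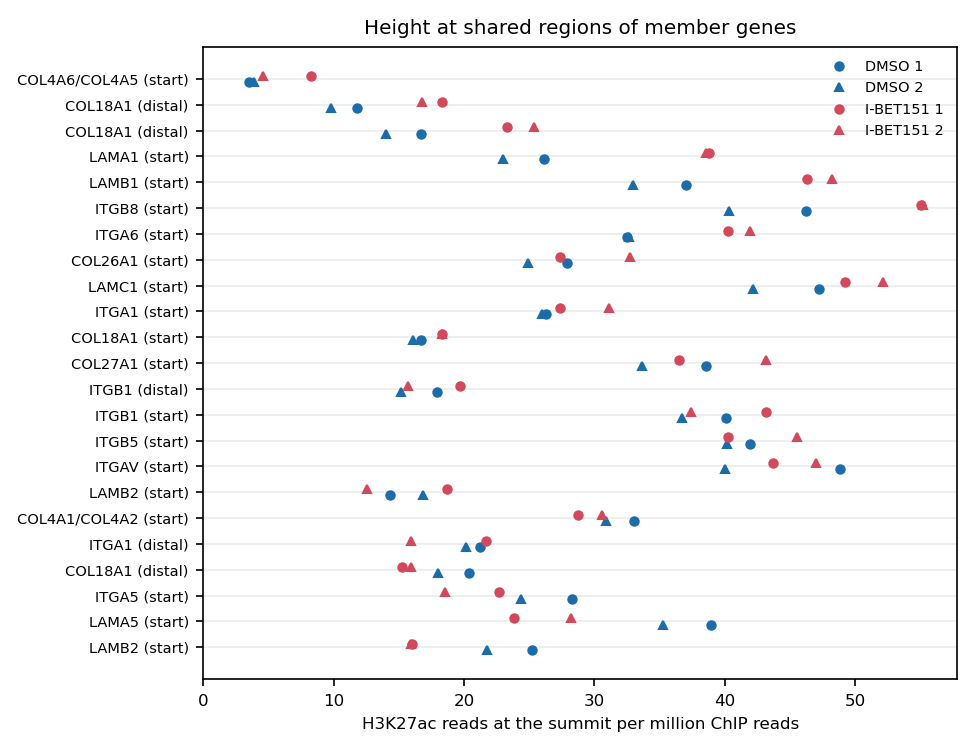
Summit reads per M ChIP reads (RPM, horizontal axis) at shared regions at a member's own start or away from any start, one row per region, with DMSO libraries in blue and I-BET151 libraries in red. In the rows of LAMA1, LAMB1, ITGA6 and ITGB8 both I-BET151 libraries lie above both DMSO libraries, and in those of LAMA5 and ITGA5 both lie below.

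Laminin starts moved both ways in height. LAMA1 stood at 26.1 and 23 RPM in DMSO and 38.8 and 38.6 in I-BET151, a centred log2 difference of 0.72 with a standard error of 0.08 (limma, adjusted p = 0.00162). LAMB1 rose from 37.1 and 32.9 to 46.3 and 48.3 (log2 difference 0.49, adjusted p = 0.00389), and LAMC1 from 47.2 and 42.2 to 49.2 and 52.1 (0.24, adjusted p = 0.0401). LAMA1, LAMB1 and LAMC1 encode the chains of the first laminin of the embryo. LAMA5 fell by 0.46 on the log2 scale (adjusted p = 0.00684). LAMB2 fell by 0.50 at one region of its start, from 25.2 and 21.8 to 16.0 and 15.9 RPM (adjusted p = 0.00532). A second region there stood at 14.3 and 16.9 against 18.7 and 12.6 RPM, with overlapping groups, and was not called (log2 difference 0.04, adjusted p = 0.907).

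Among integrin starts, ITGA6 rose from 32.5 and 32.6 RPM to 40.2 and 41.9 (log2 difference 0.39, adjusted p = 0.0101), and ITGB8 from 46.2 and 40.3 to 55.0 and 55.2 (0.41, adjusted p = 0.00943). By fold over local background the ITGA6 start pointed the other way, with a log2 difference of -0.27 that was not called (adjusted p = 0.815). ITGB1, ITGAV and ITGB5 were not called (adjusted p = 0.393, 0.423 and 0.245). ITGA5 stood at 28.3 and 24.4 RPM in DMSO and 22.7 and 18.5 in I-BET151 and was not called. In COL18A1, 2 intronic regions rose, by 0.72 and 0.76 on the log2 scale (adjusted p = 0.00163 and 0.00301), and another between them fell by 0.24 (adjusted p = 0.041).

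Motif letters were searched within 250 bp of each region's strongest summit. AP-1 (TGANTCA) was found in 11 of 85 member regions (12.9%), against 6.67% of all regions. In the lost member regions it stood in 2 of 17, at LAMA5 and COL17A1, and in all lost regions in 12.3%. Among the 29 remaining regions it stood in 7 (24.1%), against 9.73% of all such regions, and in the 36 shared member regions in 2 (5.56%), against 4.96%. TEAD letters (GGAATG, either strand) stood in 18.8% of member regions and 17.6% of all regions, and FOXA letters (TGTTTAC, either strand) in 1.18% and 2.65%.

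The genes that bind, cross-link or process these proteins were followed beside them, as a list of 45 matrix and adhesion partners. Of the 38 with a peak, limma called 5 lower and 0 higher, beside 7.04% and 1.87% of all genes, and their median log2 fold change was -0.13 against -0.06 over all genes. AGRN, a basement membrane proteoglycan that binds laminin, had 3531 and 4340 bp in DMSO against 1659 and 1632 bp in I-BET151 (adjusted p = 0.0288). LOX and LOXL4, which cross-link collagen, had 476 and 859 bp and 720 and 716 bp in DMSO and none in I-BET151 (adjusted p = 0.0409 and 0.00278). DAG1, which encodes the laminin receptor dystroglycan, went from 1008 and 952 bp to 670 and 658 bp (adjusted p = 0.0383), and BMP1, a protease that trims procollagen, from 1826 and 1755 bp to 1090 and 1124 bp (adjusted p = 0.0193). ILK and PTK2, kinases that act behind integrins, were level, with groups that overlapped.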

How the data were processed

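Per the study's methods and the labels, the authors aligned reads to hg38 with Bowtie2 (version 2.2.5 in the submitters' processing notes), removed duplicates and called peaks with MACS2 (version 2.1.2) in each H3K27ac library against input. Each deposited list gives intervals, summits, a score (not used), a fold (the ratio of summit to local background), and the p-value and q-value as −log10, all from the authors' caller. The 4 input libraries had no list and were not analysed as samples.

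The build was checked by position: a GENCODE release 44 start stood within 3 kb of 79.8 to 84.2% of summits, against 10.9 to 11.6% after a shift of 1 Mb. Covered bp per gene window (gene body and 10 kb either side) was tested with limma 3.58.1 in R 4.3.3 on log2(bp + 200) over all protein-coding genes with a peak in at least 1 library. The adjusted p was by Benjamini-Hochberg, with a threshold of 0.05. Fold at shared regions was tested the same way after centring each library on its median. ChIP reads at summits were solved from the fold and the p-value, assuming a genome size of 2.7e+09 bp, which resolved 98.5 to 99.0% of peaks, and depth followed from the lowest input level and the shortest peak. A peak within 1 kb of a protein-coding transcript start was placed at that start. A fixed significance threshold leaves out weak acetylation, and a fold change on the log2(bp + 200) scale understates changes of small values. Scripts were tested on simulated data.

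Genes named with values were those called, those with the largest differences, those with a gained or lost region, and fixed basement membrane and fibrillar sets. The AP-1 sequences, neighbouring genes and partner genes named were chosen after their values were seen, and the members and lists were chosen with earlier results of these data known. Other windows, thresholds, pseudocounts, scalings and left-out libraries were tried. The measures added after seeing the data were peaks without those at other genes' starts, sums without LAMA5 and summit reads per M ChIP reads (RPM). One member counted in the totals is not reported here by name.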

Additional observations from a re-analysis of the deposited data

How the results depend on the processing

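The data are 4 libraries of one cell line and hold thresholded calls, so a lost peak gives no level. None of the called members and summed differences changed direction in the alternatives run on covered length. Measures of height could point elsewhere. The only region of COL8A2, a member called higher by covered length, was called lower by summit RPM (log2 difference -0.23). The ITGA6 start was higher by summit RPM (log2 difference 0.39) and not by fold (-0.27). The number of members called lower, 8, was 5 with the gene body alone and 5 with no filter on peaks, and ran from 3 to 11 when one library was left out, with 4 without I-BET151 replicate 1 and 3 without I-BET151 replicate 2. The number called higher, 2, was 1 with windows of 50 kb, 1 with no filter, 1 with peaks at starts of other genes left out, and 0 to 1 when one library was left out. With replicate numbers as a block 0 members were called lower and 0 higher (limma, with 11 lower and 3 higher at an unadjusted p under 0.05, and 0 genes called overall). The numbers share no stated culture, and over 12751 genes the replicate differences of the 2 groups correlated at 0.07, so the samples were not taken as paired. Scaling to an equal total covered length moved the median log2 fold change of all genes from -0.06 to 0.06, and 7 members were then called lower and 3 higher. For the 10 called members, 106 of 147 refits kept the call and 41 lost it with the direction unchanged. The kept ones include refits without a DMSO library of the 7 members at 0 bp in I-BET151, which had no measured spread. LAMA5, ITGA3 and COL6A1 lost it under the block alone (adjusted p = 0.0548 for each), and the adjusted p of ITGB4 ran from 0.0261 to 0.569 in the other refits.

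The summed difference of -12.8 kb was -9.90 with the gene body alone, -20.4 with windows of 50 kb, -9.88 with −log10 q of at least 5, -6.42 with equal numbers of top-ranked peaks, -7.90 with equal totals, -4.85 without LAMA5, and -14.2 to -11.5 when one library was left out. Within same-numbered pairs it was -10.4 and -15.2 kb. Lost regions, 17, were 10 with top-ranked peaks and 18 to 30 with one library left out, the highest without DMSO replicate 1. They were 12 with the gene body and 13 with −log10 q of at least 5. With peaks within 500 bp merged, 12 of 74 member regions were lost, beside 1119 of all 13936 regions. Several lost regions of LAMA5 are close neighbours, so the count of 17 depends on how peaks are merged. Gained regions, 3, were 1 with the gene body, 6 with 50 kb, 5 with top-ranked peaks and 3 to 5 with one library left out, the highest without I-BET151 replicate 2. At shared regions the 0 members called lower and 0 higher by fold became 5 and 9 by summit RPM.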
